A study of Bos taurus with 34 samples.

Results

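The miR-99, miR-100 and miR-125 family was followed through circulating small RNA of dairy cows with subclinical endometritis (SCE), in which the lining of the uterus is inflamed without visible disease, and of healthy cows. The 5 members, bta-miR-99a-5p, bta-miR-99b, bta-miR-100, bta-miR-125a and bta-miR-125b, were taken by name from the 800 bovine miRNA names counted in every library. The libraries came from 11 SCE cows at day 45, 6 healthy cows at day 45, the same 11 SCE cows at day 25 and 5 of the 6 healthy cows at day 25. These are the days of the sample labels, while the design text of the series gives 44 and 21 days postpartum. Status had been set by endometrial cytology and biopsy, and no treatment, breed or age is given for either group. The healthy cows are cows 1 to 6 and the SCE cows are cows 7 to 17. The deposited day-25 counts of healthy cow 3 were identical to its day-45 counts and were left out, so 33 of 34 libraries were used.

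Mature miRNAs are short RNAs that guide Argonaute proteins to messenger RNAs matching their seed, a stretch near the 5′ end, and so lower the output of those messages. miR-99a, miR-99b and miR-100 share a seed and are known from human and mouse cells for repressing the mTOR kinase and the growth factor receptor IGF1R. miR-125a and miR-125b share another seed, are the mammalian relatives of the worm lin-4 RNA, and are known in human and mouse for roles in blood stem cells and in inflammatory signalling. Cells release miRNAs into blood bound to proteins or inside vesicles, and many cell types contribute.

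Both seed families lie side by side in the genome. In the RefSeq annotation of the ARS-UCD2.0 assembly, used here only for neighbours because the submitters' notes name UMD3.1, each hairpin of the family had others of these clusters within 100 kb. MIR99B lay near MIRLET7E and MIR125A, MIR99A near MIRLET7C and MIR125B-2, and MIR100 near MIRLET7A-2 and MIR125B-1. Mature miR-125b thus comes from 2 hairpins, whose reads cannot be told apart in a count by mature name. miR-99a-5p and miR-100 are close in sequence, and how reads matching both were counted is not stated in these sources, so the split between them is uncertain. Their counts were not copies of each other, since the log2 ratio of miR-100 over miR-99a-5p ranged from -1.08 to 0.36 over the 33 libraries.

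Total counts ranged from 678389 to 28872153 per library, with medians of 9354855 in SCE and 16939642 in healthy cows at day 45, and 8454315 in SCE and 15570759 in healthy cows at day 25. Per the labels' protocol, 10 to 20 ng of small RNA was amplified with 13 or 16 PCR cycles. No molecular identifiers are named, so counts are of reads after PCR, and the number of cycles is not stated library by library. Serum is the fluid named by the labels, and plasma the one named by the design text. The numbers in the library titles ran from 31 to 52 in SCE and from 13 to 24 in healthy libraries, so an order of handling that followed them cannot be told apart from status.

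All 5 members were detected in all 33 libraries, and the lowest count of any was 77 reads, for miR-125b in SCE cow 10 at day 45. Levels are given as CPM, counts scaled to a common library size, after TMM scaling, which corrects for a few very abundant miRNAs taking up part of a library. Mature miRNAs are of nearly the same length, and CPM values of different members are set side by side as shares of reads. Such shares need not follow the amounts of RNA molecules. miR-99b had the highest mean over the 33 libraries with 818 CPM, followed by miR-99a-5p with 686 CPM, miR-100 with 564 CPM, miR-125a with 364 CPM and miR-125b with 120 CPM. Among all miRNAs these means ranked 65, 69, 73, 81 and 119.

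The first 3 places in that order were not fixed from library to library. miR-99b had the highest count of the family in 13 libraries, miR-99a-5p in 12, miR-125a in 6 and miR-100 in 2. miR-125a exceeded miR-125b in 33 of 33 libraries, with a mean log2 ratio of 1.70 ± 0.65 (SD, n = 33). miR-100 exceeded miR-99a-5p in 6 of 33 libraries, with a mean log2 ratio of -0.43 ± 0.41 (SD, n = 33). The share of miR-125a in the family's counts ran from 4.32% to 36.5%, both in SCE libraries, and that of miR-125b from 0.777% to 15.3%. SCE cows 7 and 16 had miR-125a as the leading member at both days.

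**Figure D1:**
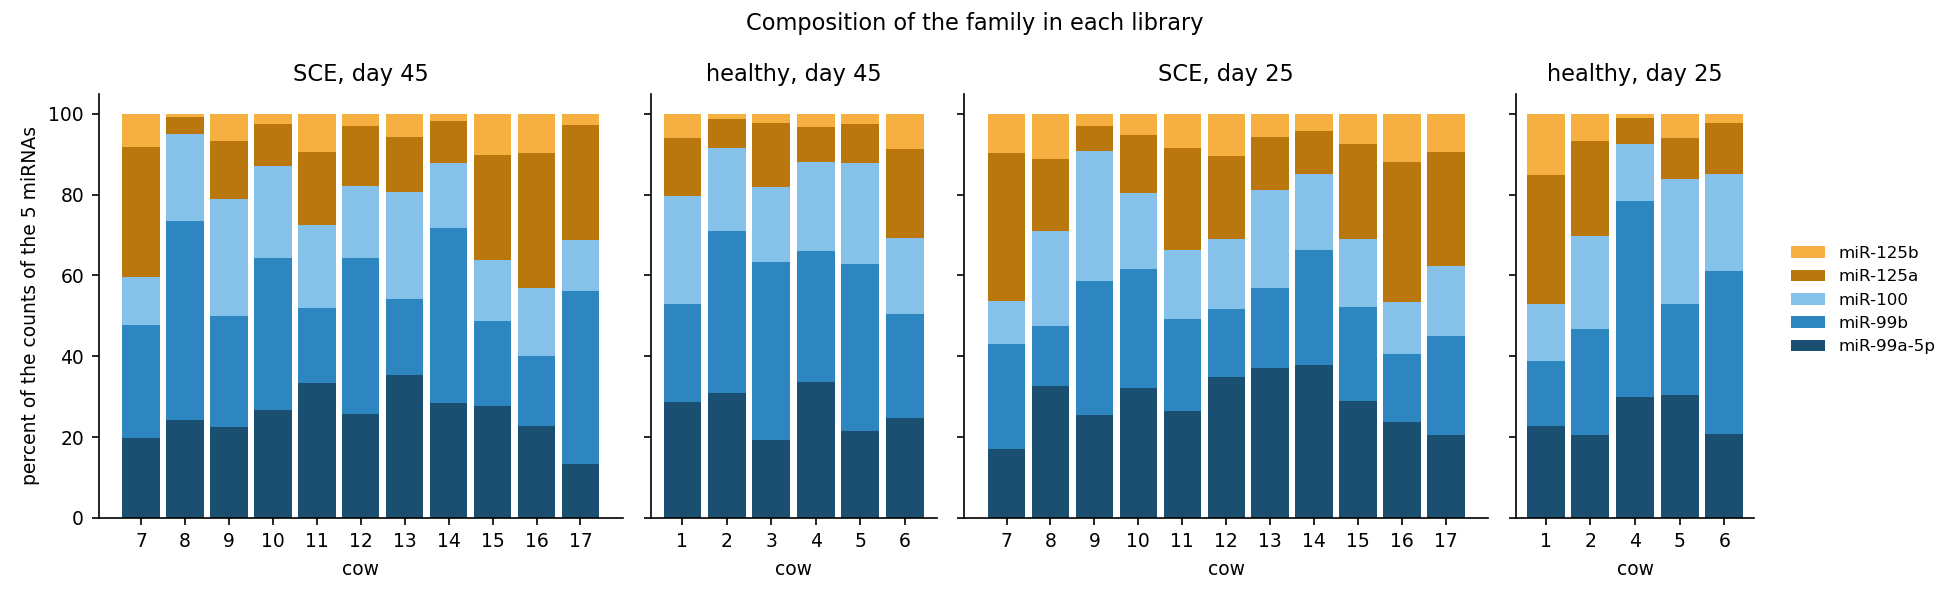
Share of each member in the summed counts of the 5 miRNAs (y axis, percent), 1 bar per cow, in panels by status and day. The miR-99 and miR-100 members fill most of nearly every bar, and the joint share of miR-125a and miR-125b differs widely between cows of the same group.

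As a share of all counts the family was small. It took 0.241 ± 0.147% of counts in SCE cows (SD, n = 11) and 0.281 ± 0.125% in healthy cows (SD, n = 6) at day 45. At day 25 it took 0.203 ± 0.181% in SCE cows (SD, n = 11) and 0.183 ± 0.071% in healthy cows (SD, n = 5). These shares differed between statuses by less than their SD. Leaving miR-486, a miRNA of red blood cells and the most abundant in the series, out of the total, the shares at day 45 were 0.363 ± 0.237% in SCE cows and 0.635 ± 0.426% in healthy cows. At day 25 they were 0.318 ± 0.281% in SCE cows and 0.404 ± 0.140% in healthy cows on the same basis.

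The members varied more between libraries than the median miRNA did. The SD of log2 CPM over the 33 libraries was 1.56 for miR-99b, 1.53 for miR-100, 1.35 for miR-99a-5p, 1.20 for miR-125b and 1.07 for miR-125a, against a median of 0.93 over the 212 miRNAs with a mean of at least 10 CPM. Of those 212 miRNAs, 196 had a lower SD than miR-99b and 135 had a lower SD than miR-125a. From its lowest to its highest library, miR-99b spanned 59.5-fold and miR-125a spanned 17.1-fold. SCE cow 17 at day 25 was the lowest library for miR-99a-5p, miR-99b and miR-100, and healthy cow 2 at day 45 the highest. SCE cow 8 at day 45 was the lowest for both miR-125a and miR-125b, and healthy cow 1 held the highest of both, at day 45 for miR-125a and at day 25 for miR-125b.

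The comparison of SCE with healthy cows asked which circulating miRNAs differ with uterine disease. With TMM scaling all 5 estimates were below 0 at each day, and at day 45 those of the miR-99 and miR-100 members were the farthest from 0, while with library totals the estimate was above 0 for miR-125a and miR-125b at day 45 and for all but miR-99b at day 25. None of the 5 passed the test after adjustment over all miRNAs. The ranges, medians and counts of cows that follow are with TMM scaling unless library totals are named. In cell-free samples, fewer cells of a type and less RNA released per cell cannot be told apart.

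miR-99b, which shares a cluster with miR-125a, ranged from 77.3 to 1665 CPM in SCE cows at day 45 with a median of 743 CPM, and from 190 to 3636 CPM in healthy cows with a median of 1736 CPM. All 11 SCE cows lay below the healthy median and 2 lay below every healthy cow, yet healthy cow 6, at 190 CPM, lay below 9 of the 11 SCE cows. With library totals SCE cows 9, 10 and 14 lay above the healthy median of that scaling, at 1298, 1630 and 1540 CPM. The other SCE cows lay below it. At day 25 miR-99b ranged from 61.1 to 1804 CPM in SCE cows with a median of 261 CPM, against 433, 545, 574, 776 and 2203 CPM in the healthy cows. Here 8 of 11 SCE cows lay below every healthy cow, the SCE cows 9, 10 and 13 being the others. Of the 8, SCE cow 7 at 433.0 CPM lay just below healthy cow 1 at 433.4 CPM. By library totals only SCE cows 12, 16 and 17 lay below every healthy cow, at 139, 114 and 99.4 CPM. The lowest healthy cow was then cow 1 at 168 CPM, and SCE cow 7 stood above it at 192 CPM. Means were 698 ± 516 CPM in SCE and 1677 ± 1187 CPM in healthy cows at day 45, and 429 ± 505 CPM in SCE and 906 ± 736 CPM in healthy cows at day 25 (SD, with 11 SCE cows at each day, 6 healthy cows at day 45 and 5 at day 25). By library totals the means were closer, at 774 CPM in SCE and 1016 CPM in healthy cows at day 45. At day 25 they were 505 CPM in SCE and 590 CPM in healthy cows by totals.

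miR-99a-5p ranged from 100 to 1374 CPM in SCE cows at day 45 with a median of 446 CPM, and from 180 to 2797 CPM in healthy cows with a median of 934 CPM. Of the SCE cows 8 lay below the healthy median and 2 below every healthy cow. With library totals SCE cows 9, 10, 11, 13 and 14 lay above the healthy median of that scaling, and the others below it. At day 25 it ranged from 51.5 to 1514 CPM in SCE cows with a median of 298 CPM, against 420, 478, 611, 774 and 1137 CPM in the healthy cows. The SCE group spread to both sides of the healthy one, with 7 cows below every healthy cow and SCE cows 9 and 13 above every healthy cow. Counted by library totals, SCE cows 7, 16 and 17 lay below every healthy cow, and SCE cows 8, 9 and 13 above. Means were 562 ± 428 CPM in SCE and 1250 ± 931 CPM in healthy cows at day 45, and 505 ± 501 CPM in SCE and 684 ± 287 CPM in healthy cows at day 25 (SD). By library totals they were 635 CPM in SCE and 727 CPM in healthy cows at day 45. The order turned at day 25 by totals, with 608 CPM in SCE and 454 CPM in healthy cows.

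miR-100 ranged from 74.5 to 1029 CPM in SCE cows at day 45 with a median of 275 CPM, and from 137 to 1861 CPM in healthy cows with a median of 997 CPM. Of the SCE cows 10 lay below the healthy median, and 3 lay below every healthy cow. With library totals SCE cows 9, 10 and 13 lay above the healthy median of that scaling, and the others below it. At day 25 it ranged from 42.8 to 1734 CPM in SCE cows with a median of 180 CPM, against 225.5, 375, 474, 788 and 1307 CPM in the healthy cows. Again 7 SCE cows lay below every healthy cow, and SCE cow 9 lay above all of them. Counted by library totals, SCE cows 7, 12, 16 and 17 lay below every healthy cow, and SCE cows 9 and 13 above. Of these, SCE cow 12 at 144.4 CPM was just below healthy cow 1 at 145.3 CPM. Means were 439 ± 343 CPM in SCE and 1040 ± 676 CPM in healthy cows at day 45, and 397 ± 521 CPM in SCE and 634 ± 429 CPM in healthy cows at day 25 (SD). By library totals they were 514 CPM in SCE and 628 CPM in healthy cows at day 45. The order turned at day 25 by totals, with 472 CPM in SCE and 417 CPM in healthy cows.

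miR-125a ranged from 54.1 to 571 CPM in SCE cows at day 45 with a median of 345 CPM, and from 163 to 925 CPM in healthy cows with a median of 549 CPM. At day 25 it ranged from 70.5 to 609 CPM in SCE cows with a median of 215 CPM, against 105, 258, 484, 696 and 856 CPM in the healthy cows. The groups overlapped at both days, with 2 of 11 SCE cows below every healthy cow at day 45 and 3 of 11 at day 25. With library totals the lowest SCE cow at day 25, cow 17 at 115 CPM, lay above healthy cow 4 at 98.7 CPM. Means were 320 ± 162 CPM in SCE and 518 ± 301 CPM in healthy cows at day 45, and 272 ± 181 CPM in SCE and 480 ± 307 CPM in healthy cows at day 25 (SD). By library totals the order turned at both days. The means were then 368 CPM in SCE and 341 CPM in healthy cows at day 45, and 311 and 276 CPM at day 25.

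miR-125b, the scarcest member, ranged from 9.73 to 226 CPM in SCE cows at day 45 with a median of 68.2 CPM, and from 63.3 to 392 CPM in healthy cows with a median of 108.5 CPM. At day 25 it ranged from 23.7 to 249 CPM in SCE cows with a median of 77.0 CPM, against 15.7, 121, 139, 150 and 410 CPM in the healthy cows. Healthy cow 1 was the highest of all cows at both days, and the lowest at day 25 was healthy cow 4, so the healthy group enclosed the SCE group at that day. With library totals this did not hold, as SCE cow 8 at 295 CPM lay above healthy cow 1 at 159 CPM at day 25. At day 45 SCE cow 9 at 317 CPM lay above healthy cow 1 at 228 CPM by totals. Means were 93.3 ± 65.5 CPM in SCE and 146 ± 123 CPM in healthy cows at day 45, and 110 ± 80.4 CPM in SCE and 167 ± 146 CPM in healthy cows at day 25 (SD). By library totals the order turned at both days. The means were then 115 CPM in SCE and 96.1 CPM in healthy cows at day 45, and 129 and 94.5 CPM at day 25.

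**Figure D2:**
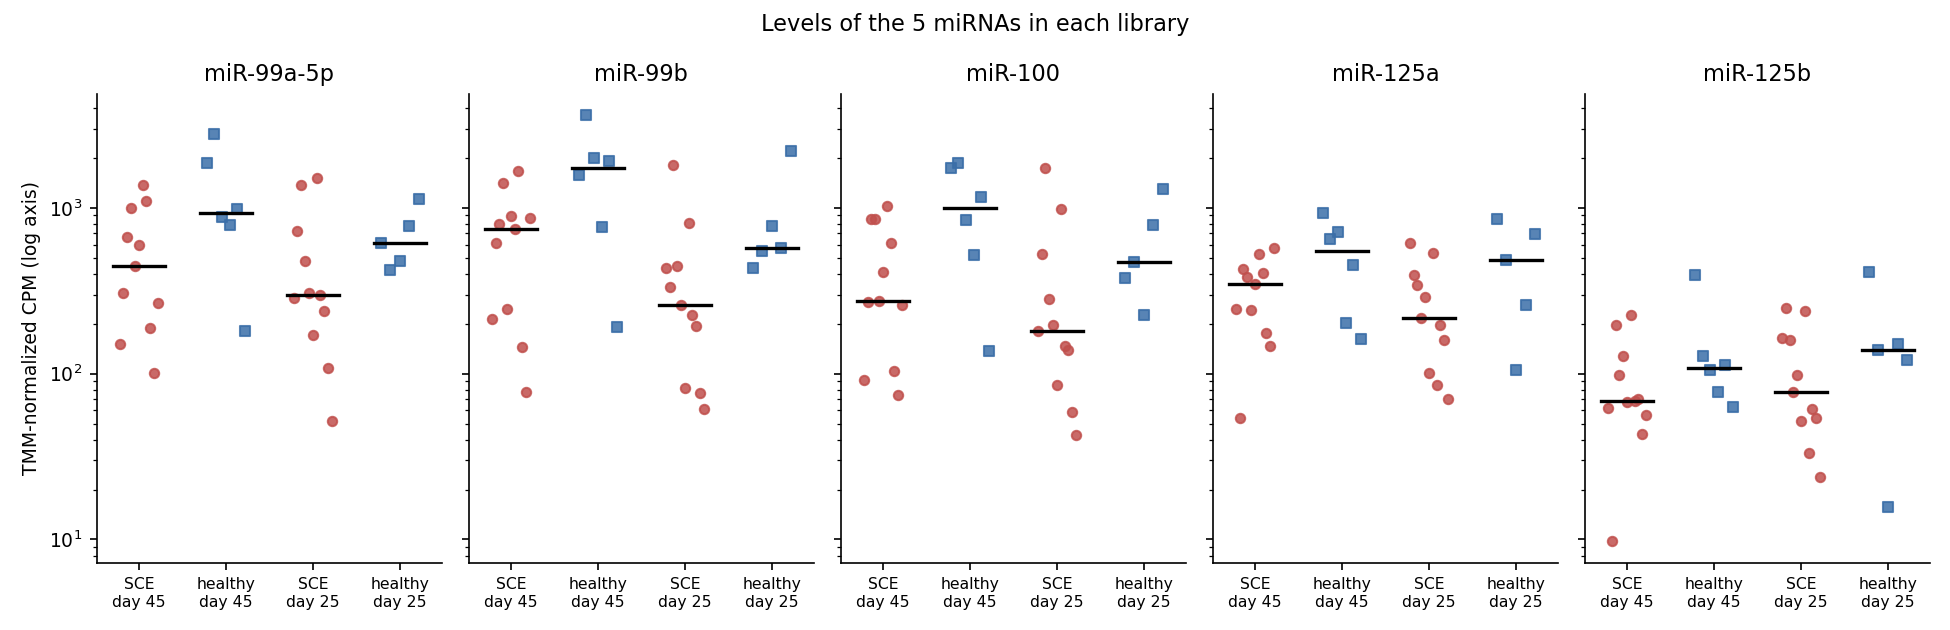
TMM-normalized CPM (log axis) of each member in each library, with SCE libraries as red circles, healthy libraries as blue squares and the group median as a bar. For no member do the SCE and healthy points separate at either day, and with TMM scaling each SCE median lies below the healthy median of its day, while with library totals in place of TMM several fitted differences change sign.

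At day 45 the log2 fold change of SCE over healthy cows was -1.27 for miR-99b (SE 0.54), -1.24 for miR-100 (SE 0.53) and -1.14 for miR-99a-5p (SE 0.52), each with an edgeR adjusted p of 0.46. These estimates correspond to 0.414, 0.425 and 0.453 times the healthy level. For the miR-125 members it was -0.67 for miR-125a (SE 0.43, edgeR adjusted p = 0.631) and -0.60 for miR-125b (SE 0.48, edgeR adjusted p = 0.675). The 95% intervals of the 3 miR-99 and miR-100 members excluded 0, at -2.38 to -0.16 for miR-99b, and those of the miR-125 members did not. At an edgeR unadjusted p under 0.05 and lower in SCE cows stood 3 of the 5 members, against 18 of all 382 miRNAs tested, or 4.71%. After adjustment edgeR called 0 of 382 miRNAs (0%), 39 had an unadjusted p under 0.05, and DESeq2 called 1, which was no member. Groups did not overlap for 0 of the 5 members and for 0% of the 382 miRNAs.

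Single cows moved these values. Without healthy cow 2 the day-45 log2 fold changes were -0.69 (miR-99b), -0.77 (miR-100) and -0.52 (miR-99a-5p), against -1.53, -1.50 and -1.40 without healthy cow 6 (edgeR adjusted p = 0.159 each). For miR-125a the value was -0.41 without healthy cow 1 and -0.42 without healthy cow 2. miR-125b was at -0.03 without healthy cow 1. No fit that left out a cow brought a member past the threshold.

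At day 25 the log2 fold change of SCE over healthy cows was -1.12 for miR-99b (SE 0.65, edgeR adjusted p = 0.321), -0.86 for miR-125a (SE 0.52, edgeR adjusted p = 0.345), -0.68 for miR-100 (SE 0.71, edgeR adjusted p = 0.591), -0.63 for miR-125b (SE 0.59, edgeR adjusted p = 0.542) and -0.46 for miR-99a-5p (SE 0.60, edgeR adjusted p = 0.701). None of the 5 members was called, against 1 of 372 miRNAs tested or 0.269%, and none had an edgeR unadjusted p under 0.05, against 32 of 372 or 8.60% that were lower at that threshold. Over all 372 miRNAs 75 had an unadjusted p under 0.05 in either direction, and DESeq2 called 14, none of them a member. Groups did not overlap for 0 of the 5 members, against 1 of 372 miRNAs or 0.269%. Without healthy cow 6 the values for miR-99b, miR-100 and miR-99a-5p were -0.49, -0.21 and -0.19, and without SCE cow 9 they were -1.70, -1.30 and -0.75. Without healthy cow 1 the value for miR-125b was 0.12 and that for miR-125a was -0.50.

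With the counts of both days summed per cow, the log2 fold change of SCE over healthy cows was -1.08 for miR-99b (SE 0.43, edgeR adjusted p = 0.217) and -0.75 for miR-125a (SE 0.33, edgeR adjusted p = 0.262). It was -0.92 for miR-100 (SE 0.48, edgeR adjusted p = 0.33), -0.73 for miR-99a-5p (SE 0.45, edgeR adjusted p = 0.365) and -0.58 for miR-125b (SE 0.41, edgeR adjusted p = 0.434). miR-99b and miR-125a, the pair of 1 cluster, were the 2 of 5 members with an unadjusted p under 0.05, against 27 of 418 miRNAs or 6.46% that were lower at that threshold. None of the 5 members was called, against 1 of 418 miRNAs or 0.239%. Over all 418 miRNAs 69 had an unadjusted p under 0.05, and DESeq2 called 15, none of them a member. Without healthy cow 1 the value for miR-125b was -0.03.

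The median over the members was -1.14 at day 45 and -0.68 at day 25 on the log2 scale, beside medians of 0.11 and -0.05 over all miRNAs tested. With library totals in place of TMM, the median of all miRNAs tested shifted by 0.60 at day 45, 0.93 at day 25 and 0.73 over both days. Under that scaling 3 of 5 members were below 0 at day 45, 1 of 5 at day 25 and 2 of 5 over both days. All 5 remained below the median of all miRNAs tested in each of the 3 comparisons. A new scaling factor moves all miRNAs of a library together, so this place was largely kept by construction. With library totals the members' median was -0.20 at day 45 and 0.18 at day 25, beside 0.71 and 0.88 over all miRNAs tested. DESeq2's size factors left all 5 members below 0 in each comparison.

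Red blood cell RNA was read from 2 ratios, those of miR-486 and of miR-451 over miR-23a, a miRNA taken as even in blood fluids. The log2 ratio of miR-486 to miR-23a was 7.84 ± 1.73 in SCE (SD, n = 11) and 9.85 ± 2.0 in healthy cows (SD, n = 6) at day 45, a difference of -2.02 (two-sided exact permutation p = 0.0404, adjusted p = 0.139 over 8 tests). At day 25 it was 6.66 ± 2.77 in SCE (SD, n = 11) and 9.97 ± 1.48 in healthy cows (SD, n = 5), a difference of -3.31 (two-sided exact permutation p = 0.0275, adjusted p = 0.139). The miR-451 ratio differed by -0.98 at day 45 (two-sided exact permutation p = 0.235, adjusted p = 0.269) and by -0.79 at day 25 (two-sided exact permutation p = 0.465, adjusted p = 0.465). By the same test the percent of counts of miR-486, which needs no miR-23a, gave p = 0.132 at day 45 and 0.087 at day 25. The log10 total count gave p = 0.0764 and 0.0659. Whether miR-23a is even between the statuses was not tested. With the miR-486 ratio as a covariate in the edgeR fit, the members' log2 fold changes at day 45 ran from -0.85 for miR-100 to -0.31 for miR-99a-5p and all 5 were below 0. At day 25 they ran from -0.21 for miR-99b to 0.87 for miR-125b, and 1 of 5 was below 0. Below the median of all miRNAs tested with this covariate were 5 of 5 members at day 45, 1 of 5 at day 25 and 3 of 5 over both days. With the miR-451 ratio as the covariate instead, all 5 were below 0 at both days, with medians of -1.01 at day 45 and -0.75 at day 25.

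**Figure D3:**
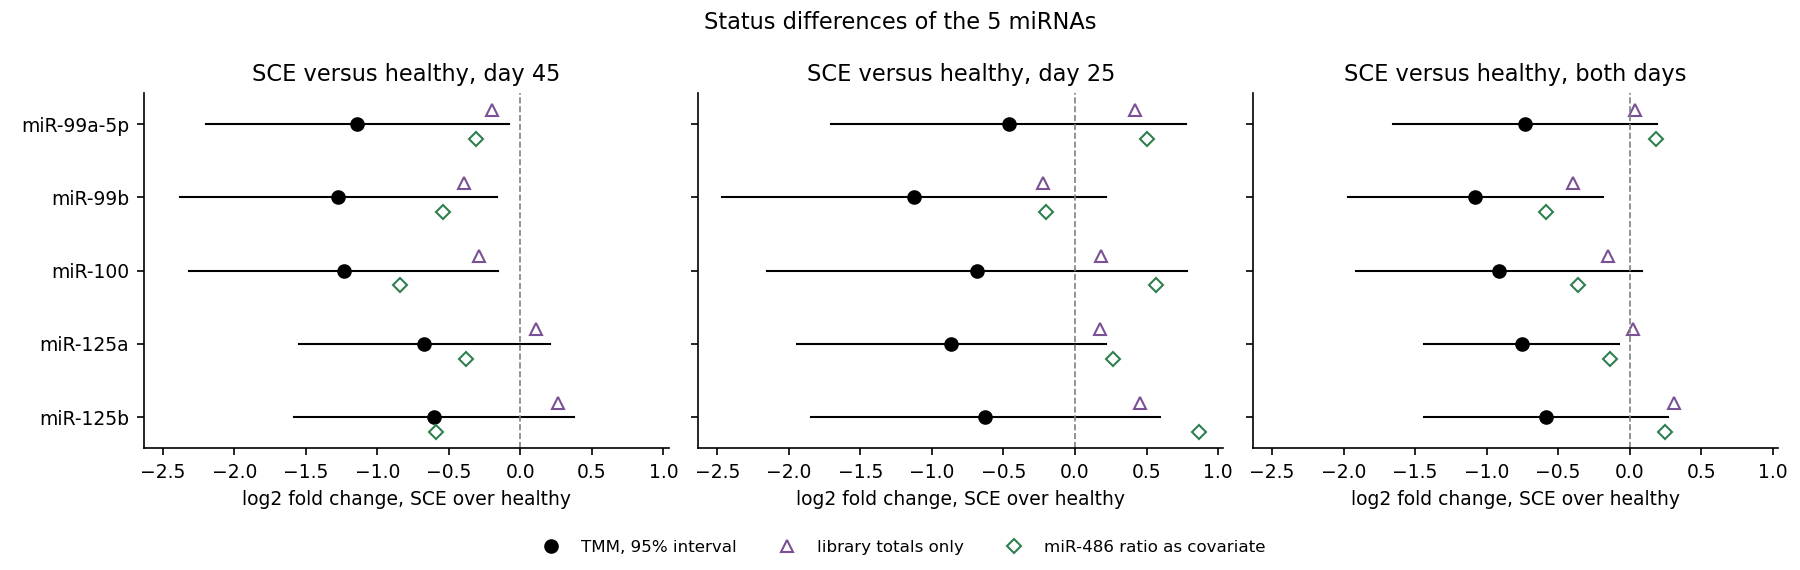
Log2 fold change of SCE over healthy cows for each member at day 45, at day 25 and over both days, with TMM scaling (circles, lines for 95% intervals), with library totals (triangles) and with the miR-486 to miR-23a ratio as covariate (diamonds). Circles lie below 0 throughout, while triangles reach 0.45 and diamonds 0.87 for miR-125b at day 25, on the other side of 0.

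The levels of the members were also set against the miR-486 ratio over the 17 cows, each cow taken as the mean of its days. Pearson's r was 0.634 for miR-125a (permutation p = 0.0066, adjusted p = 0.049 over 15 relations) and 0.607 for miR-99b (permutation p = 0.0098, adjusted p = 0.049). Spearman's rho was 0.554 for miR-125a (permutation p = 0.023, adjusted p = 0.11) and 0.571 for miR-99b (permutation p = 0.019, adjusted p = 0.11), which did not pass. Within the 11 SCE cows r was 0.438 for miR-125a and 0.345 for miR-99b, and without the 2 cows farthest from the median ratio it was 0.468 and 0.481. miR-125b followed the miR-451 ratio with r = 0.666 (permutation p = 0.0037, adjusted p = 0.049) and rho = 0.608 (permutation p = 0.011, adjusted p = 0.11), and r was 0.576 within SCE cows and 0.457 without the 2 farthest cows. The log10 total count gave r from -0.002 to 0.182 over the members.

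The 5 red blood cell miRNAs, among them miR-486 and miR-451, summed to between 4.57% and 55.4% of counts in SCE and between 15.8% and 73.3% in healthy cows at day 45. At day 25 they summed to between 4.92% and 79.6% in SCE and between 25.1% and 82.1% in healthy cows. Of the 6 white blood cell miRNAs, among them miR-142-5p and miR-150, the sum ran from 1.82% to 5.42% in SCE and from 0.922% to 3.48% in healthy cows at day 45, and from 0.599% to 5.26% in SCE and from 0.520% to 4.04% in healthy cows at day 25. No miRNA of these 2 lists was at 0 in any library. The samples are labelled as the fluid part of blood, and how these miRNAs came into it was not tested.

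No miRNA of any marker list was called between statuses at either day, and the list values that follow are with TMM scaling only. In the red blood cell list 3 of 5 were below 0 at day 45 with a median log2 fold change of -0.27, and 3 of 5 at day 25 with a median of -0.30. In the white blood cell list 5 of 6 were above 0 at each day, with medians of 0.64 at day 45 and 0.21 at day 25. Over all miRNAs tested 218 of 382 were above 0 at day 45 and 178 of 372 at day 25. miR-150 stood at 2.60 at day 45 (SE 0.70, edgeR adjusted p = 0.277), and the others of its list between -0.06 and 0.77. The 5 platelet miRNAs, among them miR-126-5p and miR-223, had medians of -0.01 at day 45 and 0.06 at day 25. The 9 of endothelium and stroma, among them miR-143 and miR-126-5p, had medians of -0.01 and 0.31 but went both ways. Of these 9, 4 were above 0 at day 45 and 5 at day 25. Their values ran from -0.57 to 2.09 (edgeR adjusted p = 0.277) at day 45. At day 25 they ran from -0.95 to 2.75 (edgeR adjusted p = 0.0695). The 4 liver miRNAs, among them miR-192 and miR-148a, had medians of -0.13 at day 45 and -0.69 at day 25. The part of any of these cell types in the members' levels was not tested beyond the 2 red blood cell ratios.

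The let-7 miRNAs of the 3 clusters differed among themselves and none was called. let-7a-5p, by mean the most abundant of them, had a log2 fold change of -0.14 (SE 0.47, edgeR adjusted p = 0.949) at day 45 and -0.94 (SE 0.50, edgeR adjusted p = 0.28) at day 25. let-7c had 0.07 (SE 0.42, edgeR adjusted p = 0.967) at day 45 and -0.62 (SE 0.34, edgeR adjusted p = 0.296) at day 25. let-7e had -0.95 (SE 0.45, edgeR adjusted p = 0.46) at day 45 and -0.36 (SE 0.51, edgeR adjusted p = 0.734) at day 25. let-7a-5p can also come from other hairpins, so its count is not that of this cluster alone. Of the 4 cluster partners, which include miR-99a-3p from the opposite arm of the MIR99A hairpin, 2 were below 0 at day 45 and 3 at day 25, with medians of -0.04 at day 45 and -0.49 at day 25.

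Members of a cluster had very unequal read counts. miR-99b exceeded let-7e in 33 of 33 libraries with a mean log2 ratio of 5.36 ± 1.26, and miR-125a exceeded let-7e in 33 of 33 with 4.56 ± 1.07 (SD, n = 33 each). miR-99b exceeded miR-125a in 22 of 33 libraries. That log2 ratio was 0.86 ± 1.27 in SCE (SD, n = 11) and 1.49 ± 0.86 in healthy cows (SD, n = 6) at day 45, and 0.27 ± 0.99 in SCE (SD, n = 11) and 0.98 ± 1.47 in healthy cows (SD, n = 5) at day 25. A ratio of counts within a library does not depend on library scaling, and for miR-99b over miR-125a the statuses differed by less than the SD of the SCE group. miR-99a-3p was detected in 28 of 33 libraries and summed to 873 counts over all of them, beside 235884 counts of miR-99a-5p. Its log2 fold change of SCE over healthy cows was 0.97 (SE 0.87) at day 45 and 1.51 (SE 0.74) at day 25, with no call. The log2 ratio of miR-99a-5p over miR-99a-3p was 8.27 ± 2.44 in SCE and 10.5 ± 2.92 in healthy cows at day 45. At day 25 it was 7.09 ± 1.36 in SCE and 10.8 ± 2.22 in healthy cows (SD). The low counts of miR-99a-3p limit these values.

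miR-10a and miR-10b, relatives of miR-99 and miR-100 by sequence and descent, are given beside the members with TMM scaling only. miR-10b had a log2 fold change of -1.60 (SE 0.56, edgeR adjusted p = 0.36) at day 45 and -1.92 (SE 0.67, edgeR adjusted p = 0.185) at day 25, and miR-10a had -0.60 (SE 0.48, edgeR adjusted p = 0.675) and -1.42 (SE 0.53, edgeR adjusted p = 0.185). Neither was called at either day or over both days, where miR-10b had -1.70 (SE 0.41, edgeR adjusted p = 0.0793).

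Over all 17 cows the coefficients of pairs that share a seed were above those of pairs that share a cluster, an order that did not hold within the 6 healthy cows alone. Correlations were taken over 17 cows on the mean log2 CPM of each cow, with permutation p-values adjusted over the 10 pairs. miR-99a-5p and miR-100 had r = 0.965 and rho = 0.936, miR-99b and miR-100 had r = 0.926 and rho = 0.912, and miR-99a-5p and miR-99b had r = 0.896 and rho = 0.895. For each of these the adjusted permutation p was 2.5e-05 for r and 3.3e-05 for rho, from an unadjusted 1e-05 that is the smallest the permutations can give. miR-125a and miR-125b had r = 0.876 (adjusted permutation p = 2.5e-05) and rho = 0.865 (adjusted permutation p = 7.5e-05).

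Pairs that share a cluster but not a seed had lower coefficients over the 17 cows. miR-99b and miR-125a had r = 0.643 (adjusted permutation p = 0.0065) and rho = 0.667 (adjusted permutation p = 0.0063). miR-100 and miR-125b had r = 0.677 (adjusted permutation p = 0.0053) and rho = 0.723 (adjusted permutation p = 0.0031), and miR-99a-5p and miR-125b had r = 0.655 (adjusted permutation p = 0.0062) and rho = 0.684 (adjusted permutation p = 0.0051). The remaining 3 pairs, of neither a seed nor a cluster, had r from 0.485 to 0.676 and rho from 0.603 to 0.620, so that by r the ranges of cluster pairs and of these pairs overlapped. The difference between the 2 kinds of pair was not tested.

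In the 11 SCE cows r was 0.965 for miR-99a-5p with miR-100 and 0.905 for miR-125a with miR-125b, against 0.589 for miR-99b with miR-125a (permutation p = 0.059) and 0.717 for miR-100 with miR-125b (permutation p = 0.014). In the 6 healthy cows r was 0.852 for miR-99a-5p with miR-100 (exact permutation p = 0.058), 0.864 for miR-125a with miR-125b (exact permutation p = 0.029), 0.604 for miR-99a-5p with miR-99b (exact permutation p = 0.2) and 0.671 for miR-99b with miR-100 (exact permutation p = 0.14). The cluster pairs of these 6 cows had r = 0.701 for miR-100 with miR-125b (exact permutation p = 0.094), 0.651 for miR-99a-5p with miR-125b (exact permutation p = 0.18) and 0.495 for miR-99b with miR-125a (exact permutation p = 0.33). By rho they ran from 0.600 to 0.829, and the seed pairs from 0.543 to 0.829, so the 2 kinds of pair overlapped in healthy cows. Without the 2 cows farthest from the median on the x axis, r was 0.956 for miR-99a-5p with miR-100, 0.897 for miR-125a with miR-125b and 0.572 for miR-99b with miR-125a. All values of a cow share its libraries and scaling factors, and reads shared between miR-99a-5p and miR-100 would add to their coefficient. Their part in it was not tested.

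**Figure D4:**
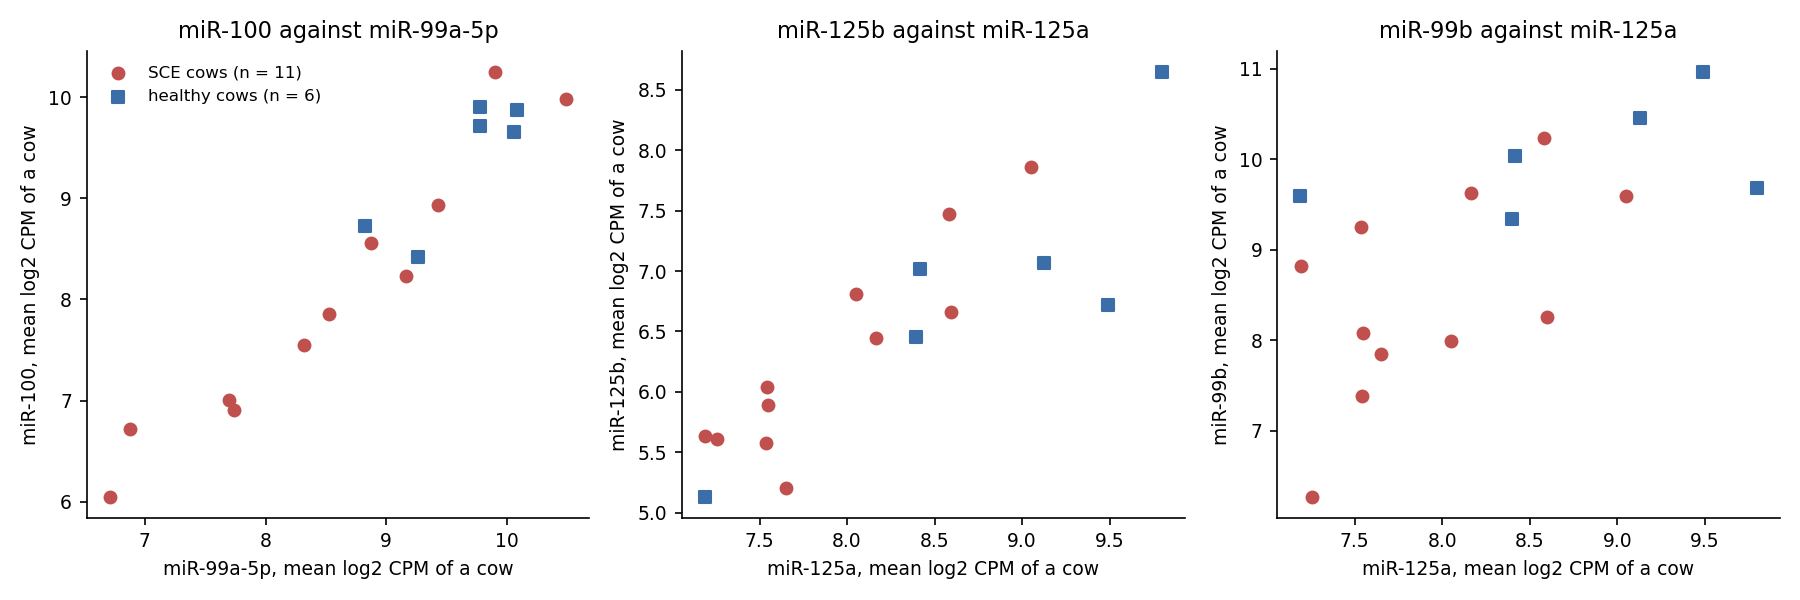
Mean log2 CPM of each of the 17 cows for miR-100 against miR-99a-5p, miR-125b against miR-125a and miR-99b against miR-125a, with SCE cows as red circles and healthy cows as blue squares. The first panel is narrow around a line (r = 0.965), the second less so (r = 0.876), and the third, the cluster pair, is the widest (r = 0.643).

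Among the other 207 miRNAs with a mean of at least 10 CPM, those with the highest rho to each member over the 17 cows differed between the seed families. Likeness is given as a description. miR-11971, a scarce miRNA with a mean of 22.7 CPM, came first for all 3 miR-99 and miR-100 members, with rho = 0.944 to miR-99b, 0.855 to miR-99a-5p and 0.853 to miR-100. miR-24-3p was among the 3 closest of each of them, with rho of 0.824, 0.765 and 0.816. miR-10b was second for miR-99b with rho = 0.887, miR-143, a miRNA of smooth muscle, second for miR-99a-5p with 0.789, and miR-30a-5p second for miR-100 with 0.838.

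The miR-125 members had other neighbours. miR-127, from the imprinted DLK1-DIO3 region, was the closest to miR-125b with rho = 0.909 and among the 3 closest to miR-125a with rho = 0.787. miR-199a-3p and miR-3604, which had nearly the same counts, each had rho = 0.89 to miR-125b. miR-409b with 0.833 and miR-10225a with 0.826 were the closest to miR-125a. The median rho to all other miRNAs lay between -0.135 and -0.078 for the 5 members. The let-7 partners ranged widely, with let-7e between 0.593 and 0.679 over the members, let-7c at 0.029 to miR-99a-5p and let-7a-5p at -0.525 to miR-125b.

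The comparison of day 45 with day 25 asked whether the levels change between the samplings. No member passed the test within either status. The main fits here and for the interaction did not pair the 2 libraries of a cow. In SCE cows the log2 fold change of day 45 over day 25 was 0.68 for miR-99b (SE 0.53, edgeR adjusted p = 0.751) and -0.34 for miR-125b (SE 0.44, edgeR adjusted p = 0.854), and the other 3 lay between 0.09 and 0.16 (edgeR adjusted p = 0.933 each). In healthy cows it was 1.03 for miR-99b (SE 0.65), 1.01 for miR-99a-5p (SE 0.59), 0.87 for miR-100 (SE 0.61), 0.12 for miR-125a (SE 0.60) and -0.24 for miR-125b (SE 0.65), with an edgeR adjusted p of 1 for each. No member and 0% of all miRNAs were called, of 346 tested in SCE and 345 in healthy cows, with 14 and 10 at an unadjusted p under 0.05, none of them a member, and DESeq2 called 0 in both. With the cow as a block the SCE values were 0.79 (miR-99b), 0.47 (miR-100), 0.27 (miR-99a-5p), 0.25 (miR-125a) and -0.16 (miR-125b). The healthy values were then 0.79, 0.75, 0.62, 0.04 and 0.07 in the same order, and no member was called.

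Healthy cow 2 carried much of the healthy estimate. Without it the log2 fold changes of day 45 over day 25 in healthy cows were 0.40 for miR-99b, 0.34 for miR-99a-5p and 0.45 for miR-100, and without healthy cow 6 they were 1.72, 1.35 and 1.40. In SCE cows, leaving out SCE cow 9 gave 1.25 for miR-99b. The difference between the statuses in the day effect, SCE minus healthy, was -0.73 for miR-99a-5p (SE 0.85), -0.58 for miR-100 (SE 0.96), -0.18 for miR-99b (SE 0.93), 0.12 for miR-125a (SE 0.70) and -0.07 for miR-125b (SE 0.80), each with an edgeR adjusted p of 0.988. Of 406 miRNAs tested 0% were called, DESeq2 called 0, and 7 had an unadjusted p under 0.05.

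Single cows moved in opposite ways, some of them with the whole family. In 4 of 11 SCE cows, cows 10, 12, 14 and 17, all 5 members were higher at day 45, by 3.82 for miR-99b and 3.01 for miR-125a on the log2 scale in cow 17. In SCE cow 7 all 5 were lower at day 45, by between -0.92 and -1.39. SCE cow 8 had miR-125b at -4.65 and miR-125a at -2.86 with miR-99a-5p at -1.25 and miR-100 at -0.96, while miR-99b was at 0.89. In healthy cow 6 all 5 were lower at day 45, with miR-99b at -3.53, miR-100 at -3.26, miR-99a-5p at -2.65, miR-125a at -2.10 and miR-125b at -0.94. The other 4 healthy cows had miR-99a-5p and miR-100 higher at day 45.

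**Figure D5:**
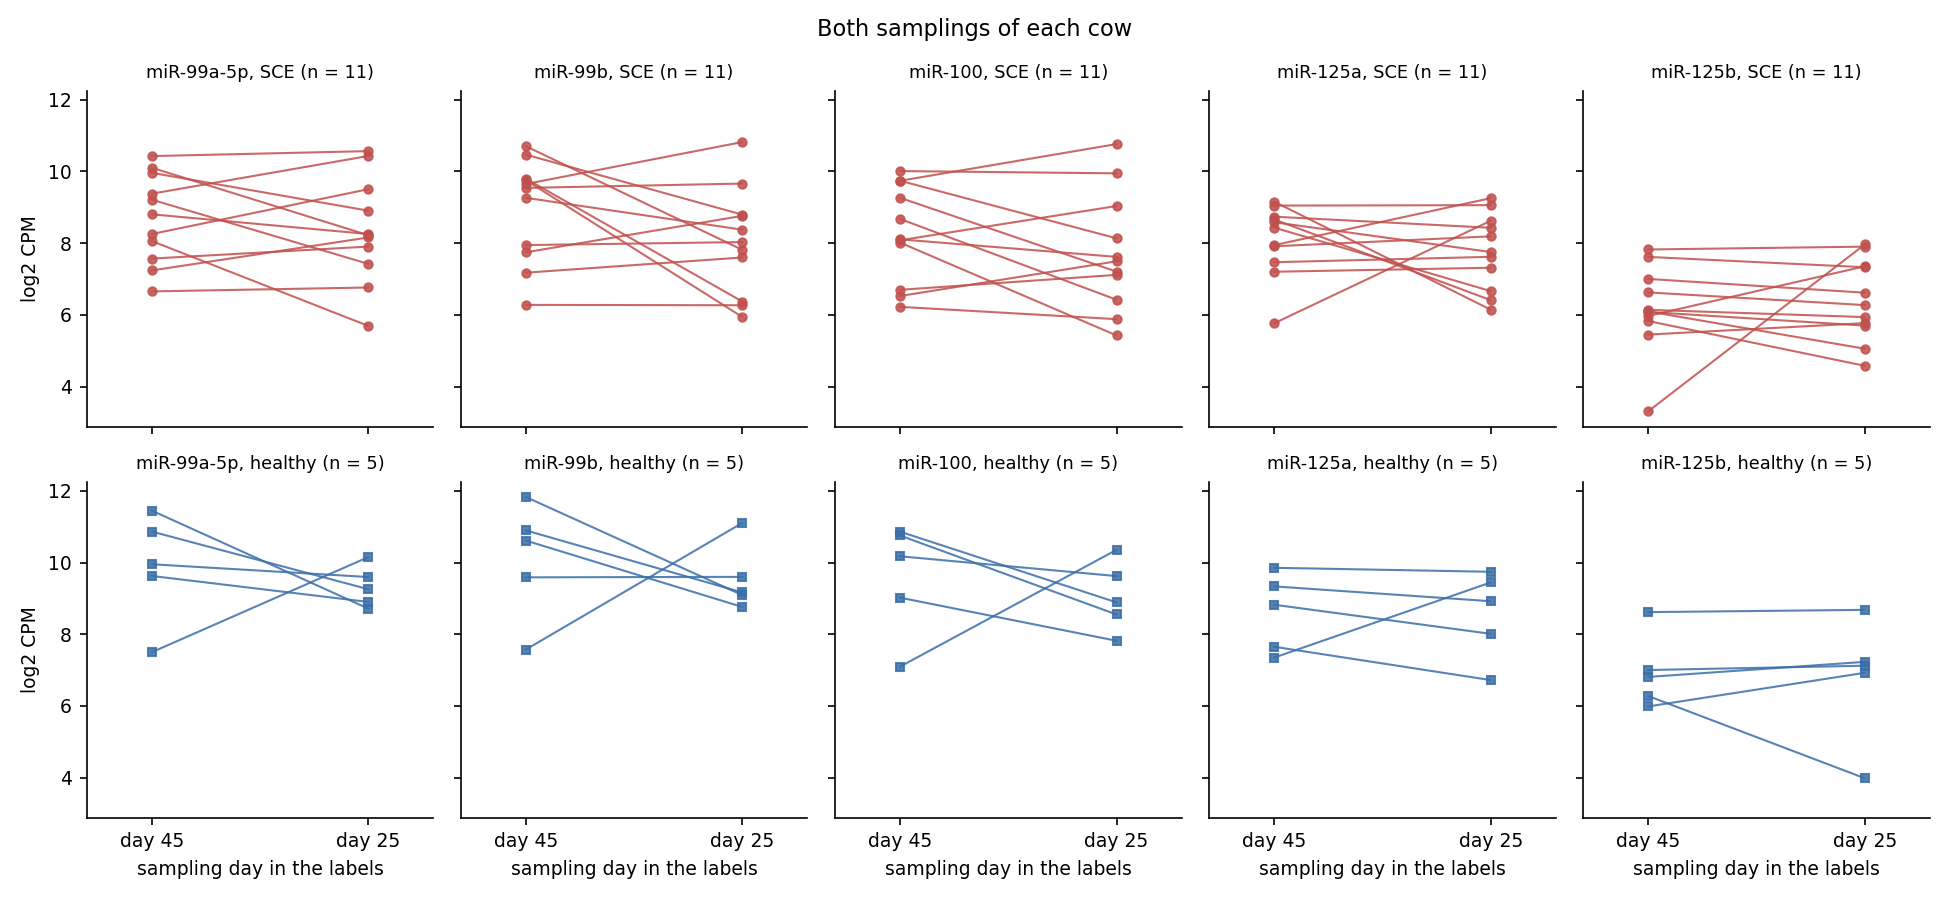
Log2 CPM of each member at day 45 and day 25, with a line joining the libraries of a cow, in SCE cows (top row, n = 11) and healthy cows (bottom row, n = 5). Lines run both ways in the SCE panels, and healthy cow 6 runs against the other healthy cows for miR-99a-5p and miR-100.

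Levels of the same cow at day 45 and at day 25 were weakly related. Over the 16 cows with both days, rho was 0.518 for miR-100 (permutation p = 0.043, adjusted p = 0.22 over 5 members), 0.432 for miR-99a-5p, 0.368 for miR-125b, 0.144 for miR-99b and 0.112 for miR-125a, and none passed adjustment. Pearson's r was 0.459 for miR-100 (permutation p = 0.073, adjusted p = 0.27) and 0.417, 0.281, 0.170 and 0.039 for the others in the same order. Without the 2 cows farthest from the median at day 25, r was 0.431 for miR-100 and 0.177 for miR-99a-5p. Within the 11 SCE cows rho was 0.645 for miR-100 (permutation p = 0.036) and 0.664 for miR-99a-5p (permutation p = 0.03), and the 5 healthy cows were too few for a coefficient.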

How the data were processed

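The authors' deposited files give, for each library, whole-number counts for 800 bovine mature miRNA names. The submitters' processing notes name bcl2fastq 2.17.1.14, the UMD3.1 genome build and DESeq2. The aligner, the counter, the miRNA annotation and how multiply matching reads were treated are not stated in these sources. Per the labels, each library is 1 cow at 1 sampling, so cows are the replicates. Files were joined by miRNA name, and the copied day-25 file of healthy cow 3 was left out.

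Differences were tested with the two-sided quasi-likelihood F test of edgeR 4.0.16 (R 4.3.3), using TMM scaling and the filter filterByExpr, and p-values were adjusted over all miRNAs tested by the Benjamini-Hochberg method, with calls at 0.05. Standard errors are the absolute log2 fold change divided by the square root of F. The fits covered status at each day, status on counts summed per cow, day within status and the interaction, and were tested on simulated data. DESeq2 1.42.0, its size factors, library totals, no filter, both red blood cell ratios as covariates, the cow as a block and leaving out each cow were the alternatives. Levels and correlations used log2 CPM with a prior count of 2, in Python 3.11.15 with scipy 1.17.1. Every member had at least 77 reads in every library. The animal number pairs the samplings. Across miRNAs, the departures of the 2 libraries of a cow from their group means had a median r of 0.251, against -0.0351 for libraries of different cows within a status, and r exceeded 0.1 in 11 of 16 cows.

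The members, the 7 lists (cluster partners and opposite arm, sequence relatives, red blood cell, white blood cell, platelet, endothelium and stroma, liver) and the tests were chosen with earlier results of these data known. Some miRNAs are in several lists. Named beside the members are the 3 miRNAs closest to each by rho and the 2 most abundant of each list. let-7e, miR-99a-3p and miR-23a were named outside that rule, as parts of ratios or clusters.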

Additional observations from a re-analysis of the deposited data

Results flagged for a closer look

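In healthy cows at day 25, miR-99b stood at 2203 CPM in cow 6, far above the next healthy cow at 776 CPM. The gap was 0.807 of the group's whole range on the CPM scale and 0.642 on the log2 scale, and it passes Dixon's 95% limit for 5 samples on the CPM scale alone. In healthy cows at day 45, miR-125b stood at 392 CPM in cow 1, above the next at 128 CPM, a gap of 0.803 of the range on the CPM scale and 0.614 on the log2 scale, with the limit for 6 samples again passed on the CPM scale alone. The limit was applied to the lowest and highest library of each member in both healthy groups, 20 comparisons in all, and chance passes it in about 1 of 20 groups. The status differences of miR-99b without healthy cow 6 and of miR-125b without healthy cow 1 are given with the comparisons.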

How the results depend on the processing

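No member passed an adjusted p of 0.05 in any of the 615 member estimates from the alternatives, 5 from each fit. The lowest adjusted p was 0.0986, for miR-99b at day 25 without SCE cow 9 (edgeR). The sign turned in 47 of these estimates. Library totals turned the day-25 log2 fold change to 0.42 for miR-99a-5p, 0.18 for miR-100, 0.17 for miR-125a and 0.45 for miR-125b, the day-45 one to 0.11 for miR-125a and 0.26 for miR-125b, and that over both days to 0.039, 0.025 and 0.31 for miR-99a-5p, miR-125a and miR-125b. The miR-486 covariate turned day 25 to 0.50 for miR-99a-5p, 0.57 for miR-100, 0.27 for miR-125a and 0.87 for miR-125b, and both days to 0.18 for miR-99a-5p and 0.25 for miR-125b. The cause of these turns was not tested.

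For day 45 over day 25 in healthy cows, the main estimates were 0.12 for miR-125a and -0.24 for miR-125b. There miR-125a was -0.0011 with DESeq2's size factors and -0.0090 with its test. miR-125b was 0.024 with library totals, 0.16 with the miR-486 covariate and 0.067 with the cow as a replicate block. The replicate block changed no other sign and no call. In the interaction miR-125b was 0.13 with DESeq2's size factors, 0.13 with its test and 0.10 with the miR-451 covariate, miR-125a was -0.065 with library totals, and miR-99b was 0.024 with the miR-486 covariate.

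Leaving out 1 cow turned the sign of 22 of 420 member estimates, 1 of them between statuses. Ranges were -0.90 to 0.12 for miR-125b at day 25, -0.12 to 0.33 for miR-125a and -0.37 to 0.00095 for miR-125b between days in healthy cows, and -0.052 to 0.43 for miR-99a-5p, -0.060 to 0.64 for miR-100, -0.10 to 0.45 for miR-125a and -0.44 to 0.016 for miR-125b between days in SCE cows. In the interaction they were -1.08 to 0.24 for miR-99b, -0.23 to 0.42 for miR-125a and -0.25 to 0.47 for miR-125b.

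The number of miRNAs called at day 25, 1 with edgeR, was 4 with DESeq2's size factors, 48 with library totals, 6 with no filter, 2 with the miR-451 covariate, 14 with DESeq2's test and 0 to 7 without 1 cow. At day 45, with 0 called, it was 1 with library totals, 1 with the miR-451 covariate and 1 with DESeq2's test. Over both days, with 1 called, it was 64 with library totals, 2 with no filter, 0 with either covariate, 15 with DESeq2's test and 0 to 10 without 1 cow. In the interaction it was 1 with no filter. None of these was a member. Only 5 or 6 healthy cows stood in a comparison at a day, and the lowest count of a member was 77 reads.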
